A study of Mus musculus with 22 samples.

Results

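The genes described here are Myc and 31 genes whose products build ribosomes or make polyamines, 32 genes of the 47069 in the count table, taken by gene symbol. They were measured by mRNA sequencing in whole bone marrow of 22 transplanted mice. All 32 passed the filter on low counts, both with all libraries and with 1 outlying library left out. Donor LSK cells, a marrow fraction rich in stem and progenitor cells, carried a Cas9 knock-in and received guide RNAs, and irradiated C57BL/6J recipients were given them. Marrow was collected at leukemia or after 6 months, with no label telling the mice with leukemia from the rest. The groups were sgEzh2 + sgRunx1 (4 mice), sgBcor + sgRunx1 (3), sgRunx1 + sgLuc (3), sgEzh2 + sgLuc (3), sgBcor + sgLuc (3) and sgLuc (6). All of them share the Cas9 background, the transduction and the transplantation, and sgLuc, a luciferase guide with no mouse target, was the control and the partner guide of the single-gene groups. Ezh2 encodes the H3K27 methyltransferase of Polycomb complex PRC2, Runx1 a blood transcription factor and Bcor a corepressor of a variant PRC1. The marrow is a mixture in which unedited and host cells may remain.

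Besides Myc the genes fall into 6 roles. The snoRNP genes are Nop56, Nop58, Fbl, Dkc1 and the snoRNP chaperone gene Nolc1. Small subunit assembly is represented by Utp20, Nop14, Rrp9, Rrp12, Wdr43, Noc4l, Imp4, Bysl and Tsr1, and large subunit assembly by Pes1, Bop1, Wdr12, Nop2, Nop16, Rrs1, Ppan, Mrto4, Nip7, Gnl3 and Grwd1. The abundant nucleolar proteins are Npm1, Ncl and Ddx21, Polr1b stands for RNA polymerase I, and Odc1 and Srm make polyamines.

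MYC is a transcription factor that binds DNA as a dimer with MAX, at the sequence called the E-box, and is known for raising the output of genes for ribosome assembly. In the nucleolus RNA polymerase I transcribes the ribosomal RNA precursor. Small nucleolar ribonucleoproteins (snoRNPs) guide its chemical modification, and separate sets of factors fold and cut it into the small and the large subunit. In marrow, growing progenitors and activated lymphocytes make many ribosomes, and maturing granulocytes few.

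The E-box was looked for in RefSeq promoters because it is the site MYC with MAX is known to bind. The table (build GRCm38.p6) gives 250 bases before and 50 after a gene's start, and held 25 of the 32 genes. Myc, Npm1, Fbl, Rrs1, Rrp12, Bop1 and Srm had no entry and were not searched. The letters CACGTG, which read the same on both strands, stood in the window of 7 of the 25 genes (28%), against 2187 of 27025 genes of the table (8.09%). The stretches that hold it are printed 5′ to 3′ on the gene's strand with the E-box in capitals.
Pes1, chr11:3963965-3963994, plus strand: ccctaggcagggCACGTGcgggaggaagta
Tsr1, chr11:74898092-74898121, plus strand: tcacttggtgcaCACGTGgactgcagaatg
Wdr43, chr17:71616220-71616249, plus strand: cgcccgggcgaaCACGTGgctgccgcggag
Grwd1, chr7:45830740-45830767, minus strand: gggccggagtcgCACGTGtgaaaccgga
Utp20, chr10:88826765-88826789, minus strand: cggcactaactaCACGTGaggaaaa
Nop2, chr6:125131811-125131840, plus strand: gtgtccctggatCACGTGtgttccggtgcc
Imp4, chr1:34439696-34439725, plus strand: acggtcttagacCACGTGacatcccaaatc
In 5 of these genes the motif began within the first 38 bases after the start, and in Nop2 and Imp4 it lay before it, at bases -60 and -121. A match is a description of the letters and not of binding, which was not measured.

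The whole windows of Pes1 and Mrto4 are shown because these genes passed the test in the most comparisons, as described below. Pes1 holds the E-box at base 3 after its start, and Mrto4 holds none in its window.
Pes1, chr11:3963725-3964024, plus strand: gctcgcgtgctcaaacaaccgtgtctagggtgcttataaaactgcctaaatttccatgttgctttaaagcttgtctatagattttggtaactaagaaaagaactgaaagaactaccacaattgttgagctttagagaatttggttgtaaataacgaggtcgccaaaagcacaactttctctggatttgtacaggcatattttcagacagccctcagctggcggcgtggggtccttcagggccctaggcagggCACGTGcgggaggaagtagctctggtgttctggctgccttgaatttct
Mrto4, chr4:139352527-139352826, minus strand: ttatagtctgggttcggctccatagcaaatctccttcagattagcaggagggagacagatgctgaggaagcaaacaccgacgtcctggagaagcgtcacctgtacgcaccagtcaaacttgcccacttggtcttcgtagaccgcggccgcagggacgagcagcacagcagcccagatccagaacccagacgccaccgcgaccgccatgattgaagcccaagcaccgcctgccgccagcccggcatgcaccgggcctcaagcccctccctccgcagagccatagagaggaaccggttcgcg

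Levels were given as TMM-scaled CPM, a count relative to the scaled library size, and a gene was called at an adjusted p (FDR) below 0.05 by edgeR's quasi-likelihood test over all genes tested. A share of all genes given beside a count of calls covers calls in either direction. Library totals ran from 30023722 to 57175449 counts. The library sgEzh2 + sgLuc replicate 3 stood apart: the summed CPM of 8 T cell markers was 2965, against 3.19 to 206 in the other 21 libraries. In the same library 8 granulocyte markers summed to 258, against 35705 to 111560 elsewhere, so the usual granulocytes of marrow were nearly absent from it. Ezh2 itself was at 43.9 to 77.1 CPM in sgEzh2 + sgRunx1 and 57.6 to 70.5 in sgEzh2 + sgLuc, against 88.2 to 110 in sgLuc. The mRNA level does not check a small edit, and Runx1 ran at 92.9 to 136 CPM in the 3 groups with its guide, against 87.0 to 99.8 in sgLuc, and Bcor at 62.8 to 200 CPM in the 2 groups with its guide, against 50.8 to 68.1 in sgLuc. The Y-linked gene Ddx3y was at 0 in all 16 edited libraries and at 39.8 to 70.2 CPM in sgLuc, so sex and guide cannot be told apart in any comparison with sgLuc. Comparisons between edited groups do not share this limit. In bulk marrow, fewer cells of a type and less RNA per cell cannot be told apart.

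In control marrow the genes spanned a wide range of length-scaled levels. The nucleolar proteins Npm1, a histone chaperone, and Ncl, an RNA-binding protein, were highest, at 354 ± 44.9 and 192 ± 25.2 FPKM in sgLuc (SD, n = 6). The C/D-box snoRNP proteins Fbl (the 2′-O-methyltransferase, 121 ± 11.4 FPKM) and Nop56 (a core subunit, 118 ± 16.0) came next. Myc stood 8th in the order at 54.6 ± 17.0 FPKM (SD, n = 6), beside Odc1, the rate-limiting enzyme of polyamine synthesis, at 54.5 ± 19.3. Utp20, a large scaffold of small subunit assembly, was lowest at 2.77 ± 0.595 FPKM. Of 31 pairs of neighbours in this order 27 overlapped in the range of their 6 values. The genes share the 6 libraries, so overlap alone does not tell whether 2 ranks differ. Mrto4, for example, overlapped its neighbour Noc4l but lay above it in each of the 6.

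**Figure D1:**
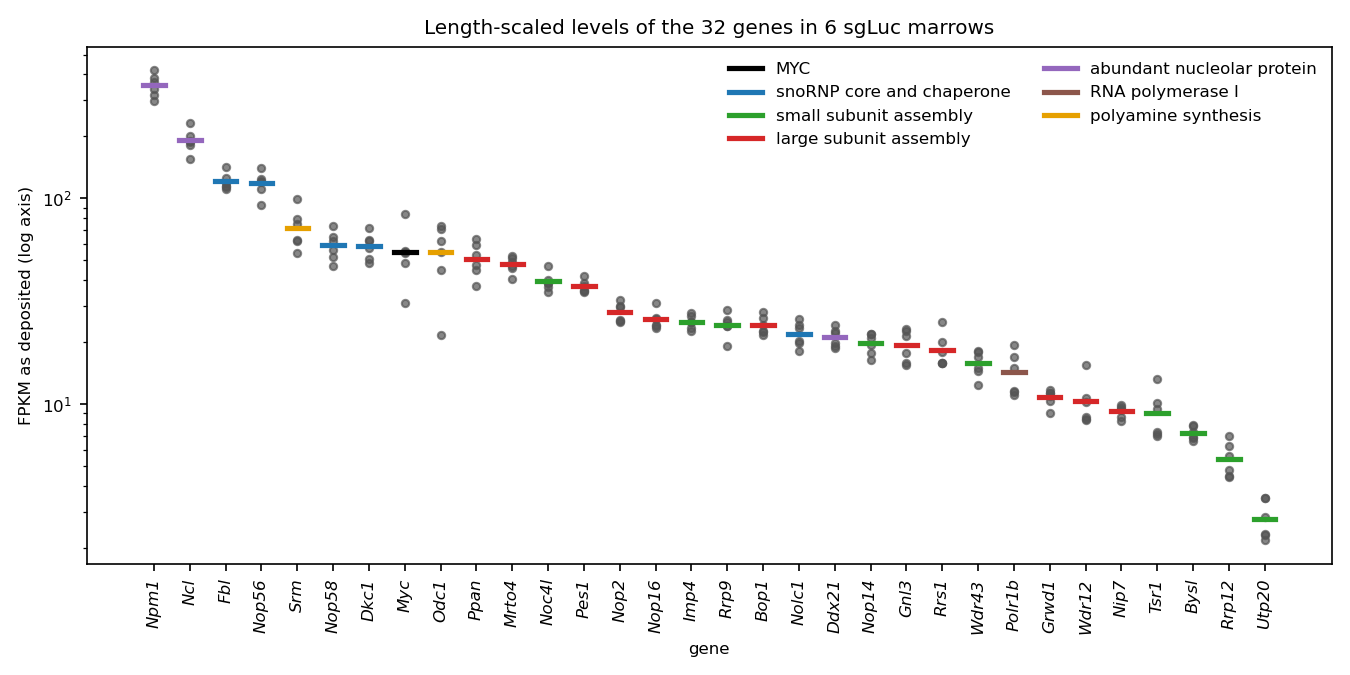
FPKM of the 32 genes (log axis) in the 6 sgLuc libraries, from highest to lowest mean. Points are libraries, and bars are means coloured by role. Npm1 (354) and Ncl (192) lead and Utp20 (2.77) is last.

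Myc was not called by edgeR in any of the 9 comparisons, with all libraries or without sgEzh2 + sgLuc replicate 3. It was at 89.9, 69.3, 111 and 69.9 CPM in sgEzh2 + sgRunx1 and at 101, 53.6 and 93.4 CPM in sgBcor + sgRunx1. The single groups held 62.7, 69.7 and 62.9 CPM (sgRunx1 + sgLuc), 50.5, 57.4 and 225 CPM (sgEzh2 + sgLuc) and 64.7, 68.7 and 86.4 CPM (sgBcor + sgLuc), and sgLuc held 103, 94.7, 151, 58.2, 108 and 92.8 CPM. All edited libraries other than 1 lay within or below the sgLuc range, and 225 CPM in sgEzh2 + sgLuc replicate 3 was the highest of the 22. In sgRunx1 + sgLuc against sgLuc its log2 fold change was -0.64 (SE 0.378, FDR 0.345). Without replicate 3, sgEzh2 + sgLuc and sgLuc did not overlap in Myc, at a log2 fold change of -0.91 that was not called (SE 0.28, FDR 0.147, edgeR). Leaving out sgLuc replicate 4, the lowest control, as well moved this to -1.02 (FDR 0.0433) and the value in sgRunx1 + sgLuc to -0.73 (FDR 0.0205). DESeq2 also called Myc lower in both groups without replicate 3, at -0.90 (FDR 0.0358) and -0.63 (FDR 0.0356). In sgEzh2 + sgRunx1 against sgEzh2 + sgLuc without replicate 3 Myc was at 0.66 (FDR 0.174), again with no overlap.

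**Figure D2:**
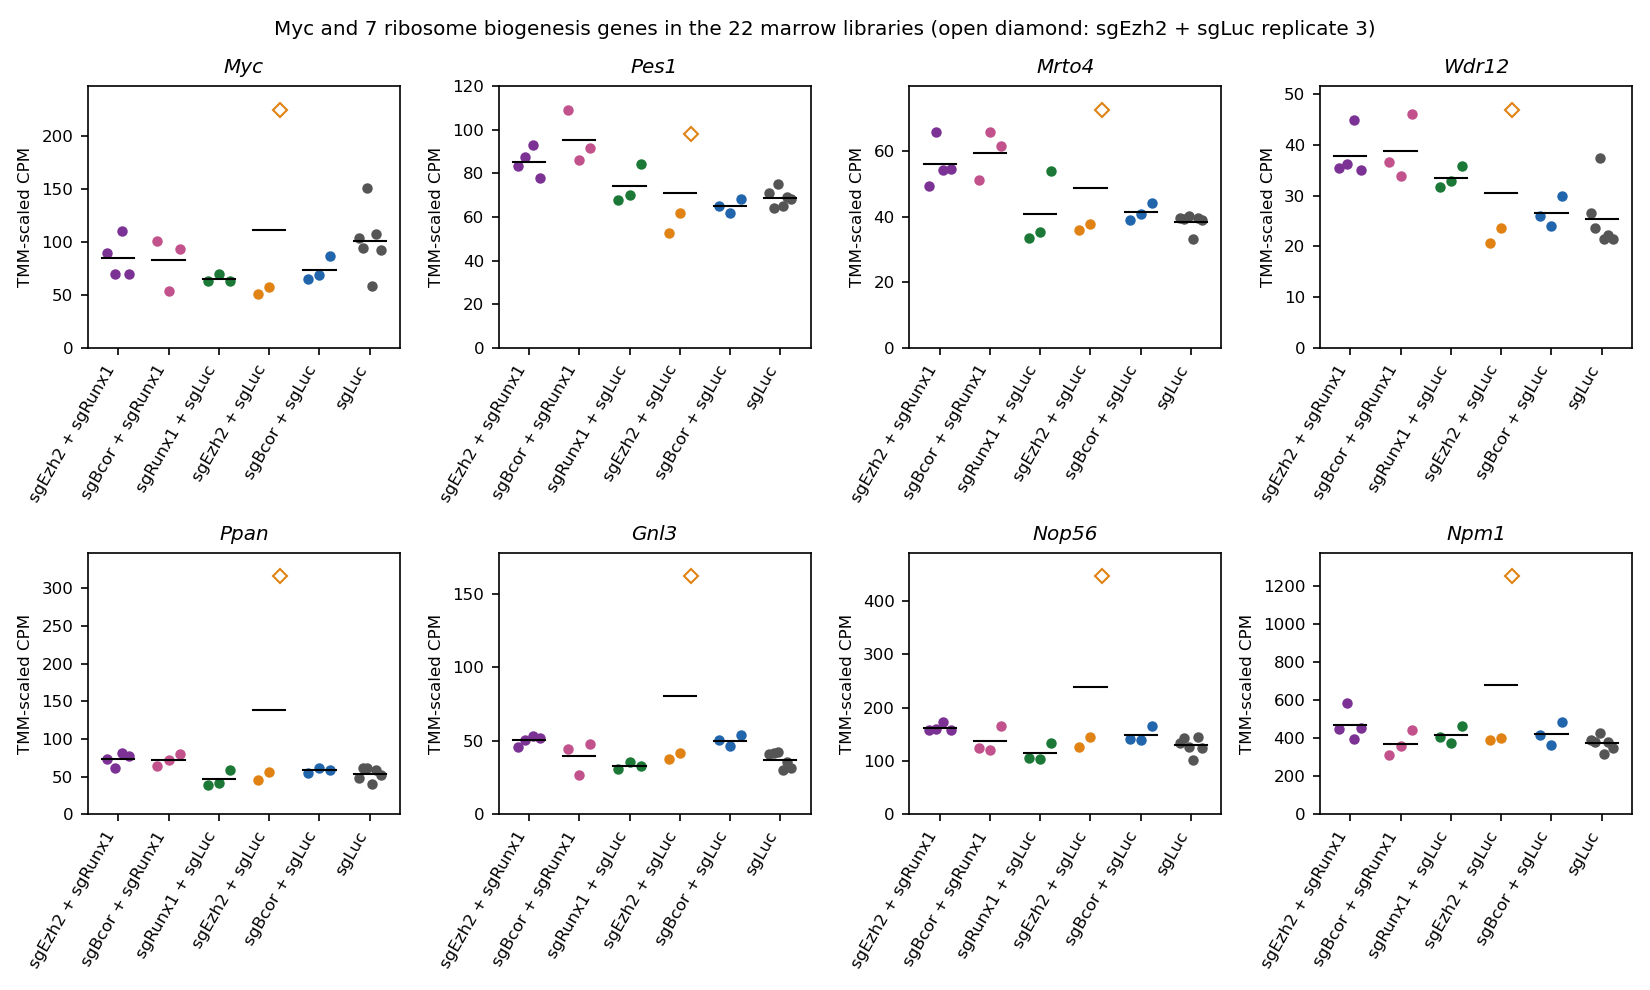
TMM-scaled CPM of Myc and 7 ribosome biogenesis genes in each library (points), with group means (lines). The open diamond is sgEzh2 + sgLuc replicate 3, the highest library for each of the 8 genes except Pes1.

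The library sgEzh2 + sgLuc replicate 3 was the highest of all 22 libraries for 29 of them, the exceptions being Pes1, Srm and Odc1. Relative to the mean of the other 2 sgEzh2 + sgLuc libraries the ratio ran from 1.26 for Odc1 to 6.25 for Ppan, a factor of large subunit assembly, with a median of 2.67. Myc (4.16), Wdr43 (4.16, a subunit of the small subunit processome), Polr1b (4.15, the second-largest subunit of RNA polymerase I) and Gnl3 (4.06, the nucleolar GTPase nucleostemin) followed. Summed proliferation markers were lowest in this library, at 1581 CPM against 1717 to 2312 in the other 21. Of these markers Mki67, Top2a, Mcm5, Ccnb1, Cdk1 and Birc5 were each lowest in it. Mcm2 (206 CPM, against 118 to 215 in the other 21) and Pcna (398 CPM, against 304 to 473) lay inside the range of the others. The T cell and granulocyte sums of this library, given above, also lay outside the range of the other 21. Their part in the levels of the 32 genes was not tested. GENCODE M21 places snoRNA genes inside 9 of the 32 genes (28.1%), against 235 of 13732 tested protein-coding genes (1.71%). The ratio had a median of 3.26 in these 9, which are Nop56, Nop58, Dkc1, Wdr43, Tsr1, Ppan, Gnl3, Ncl and Odc1, and of 2.32 in the other 23.

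**Figure D3:**
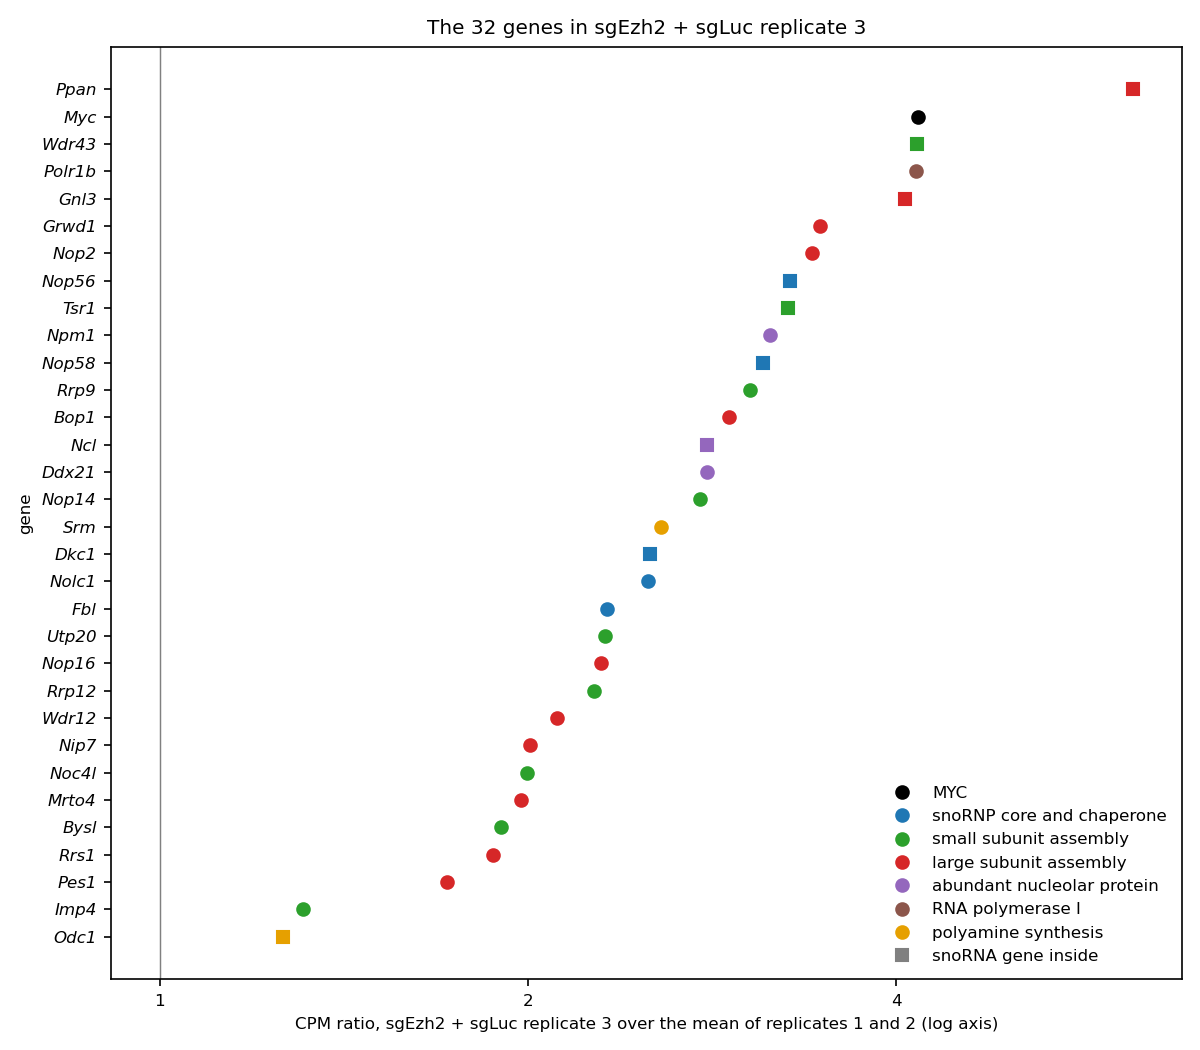
Ratio of CPM in sgEzh2 + sgLuc replicate 3 to the mean of replicates 1 and 2 of that group, for each of the 32 genes (log axis). Colours mark roles and squares genes with a snoRNA inside; all ratios are above 1, from 1.26 (Odc1) to 6.25 (Ppan).

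In sgEzh2 + sgLuc against sgLuc, 4 of the 32 genes were called, all higher, while 8.25% of all genes were called in either direction. Gnl3 had 37.6, 42.0 and 162 CPM in sgEzh2 + sgLuc, against 29.99 to 42.5 CPM with a median of 38.7 in sgLuc (log2 fold change 1.12, SE 0.306, FDR 0.0314). Ppan had 45.3, 55.9 and 316 CPM in sgEzh2 + sgLuc, against 39.9 to 62.3 CPM with a median of 55.7 in sgLuc (1.37, SE 0.382, FDR 0.0349). In both genes the first and second libraries lay inside the sgLuc range. Nop56 (127, 145 and 446 CPM, against 102 to 145 in sgLuc) and Npm1 (389.8, 402 and 1249 CPM, against 317 to 430 in sgLuc) followed the same pattern, at log2 fold changes of 0.89 (FDR 0.04) and 0.86 (FDR 0.0462) in edgeR. DESeq2 called 6 of the 32, which were Nop56, Rrp9, Wdr43, Nip7, Gnl3 and Npm1, and gave Ppan no adjusted p. No gene of the 32 had groups that did not overlap. All 32 log2 fold changes were above 0, with a median of 0.50 against 0.06 over all genes. Without replicate 3 none of the 32 was called by edgeR (1.05% of all genes), 25 were below 0 and the median was -0.13; 7 had an unadjusted p below 0.05, all lower, and DESeq2 called Myc only. The values of Gnl3, Ppan, Nop56 and Npm1 were then 0.10, -0.09, 0.07 and 0.08. With all libraries the count was 0 without sgLuc replicate 1, 4, 5 or 6, 2 without sgLuc replicate 2 or 3, and 18 or 16 without replicate 1 or 2 of sgEzh2 + sgLuc.

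Neither of the other single groups gave a call. In sgRunx1 + sgLuc against sgLuc 0 of 32 were called (8.12% of all genes), none had an unadjusted p below 0.05, DESeq2 called 0, and the median was 0.02. The smallest p belonged to Wdr12 (0.39, FDR 0.289), a partner of Pes1 and Bop1 in the PeBoW complex of large subunit assembly, to Odc1 (0.44, FDR 0.297) and to Myc in edgeR. Without sgEzh2 + sgLuc replicate 3, which lowers the shared estimate of spread, 0 of 32 were called (14.6% of all genes), 2 were higher and 4 lower at an unadjusted p below 0.05, and DESeq2 called Myc only; leaving out sgLuc replicate 3 as well gave 1 call, higher, and sgLuc replicate 4 the Myc call given above. In sgBcor + sgLuc against sgLuc 0 of 32 were called by edgeR (3.16% of all genes) and by DESeq2, none at an unadjusted p below 0.05, with a median of 0.03. Spermidine synthase Srm (-0.52, FDR 0.313), the small subunit factor Bysl (-0.34, FDR 0.329) and Gnl3 (0.43, FDR 0.5) had the smallest p in edgeR. Without replicate 3 of sgEzh2 + sgLuc the count stayed at 0 (8.17% of all genes), with 4 at an unadjusted p below 0.05, 1 higher and 3 lower, and DESeq2 called Gnl3 (0.44, FDR 0.0347).

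**Figure D4:**
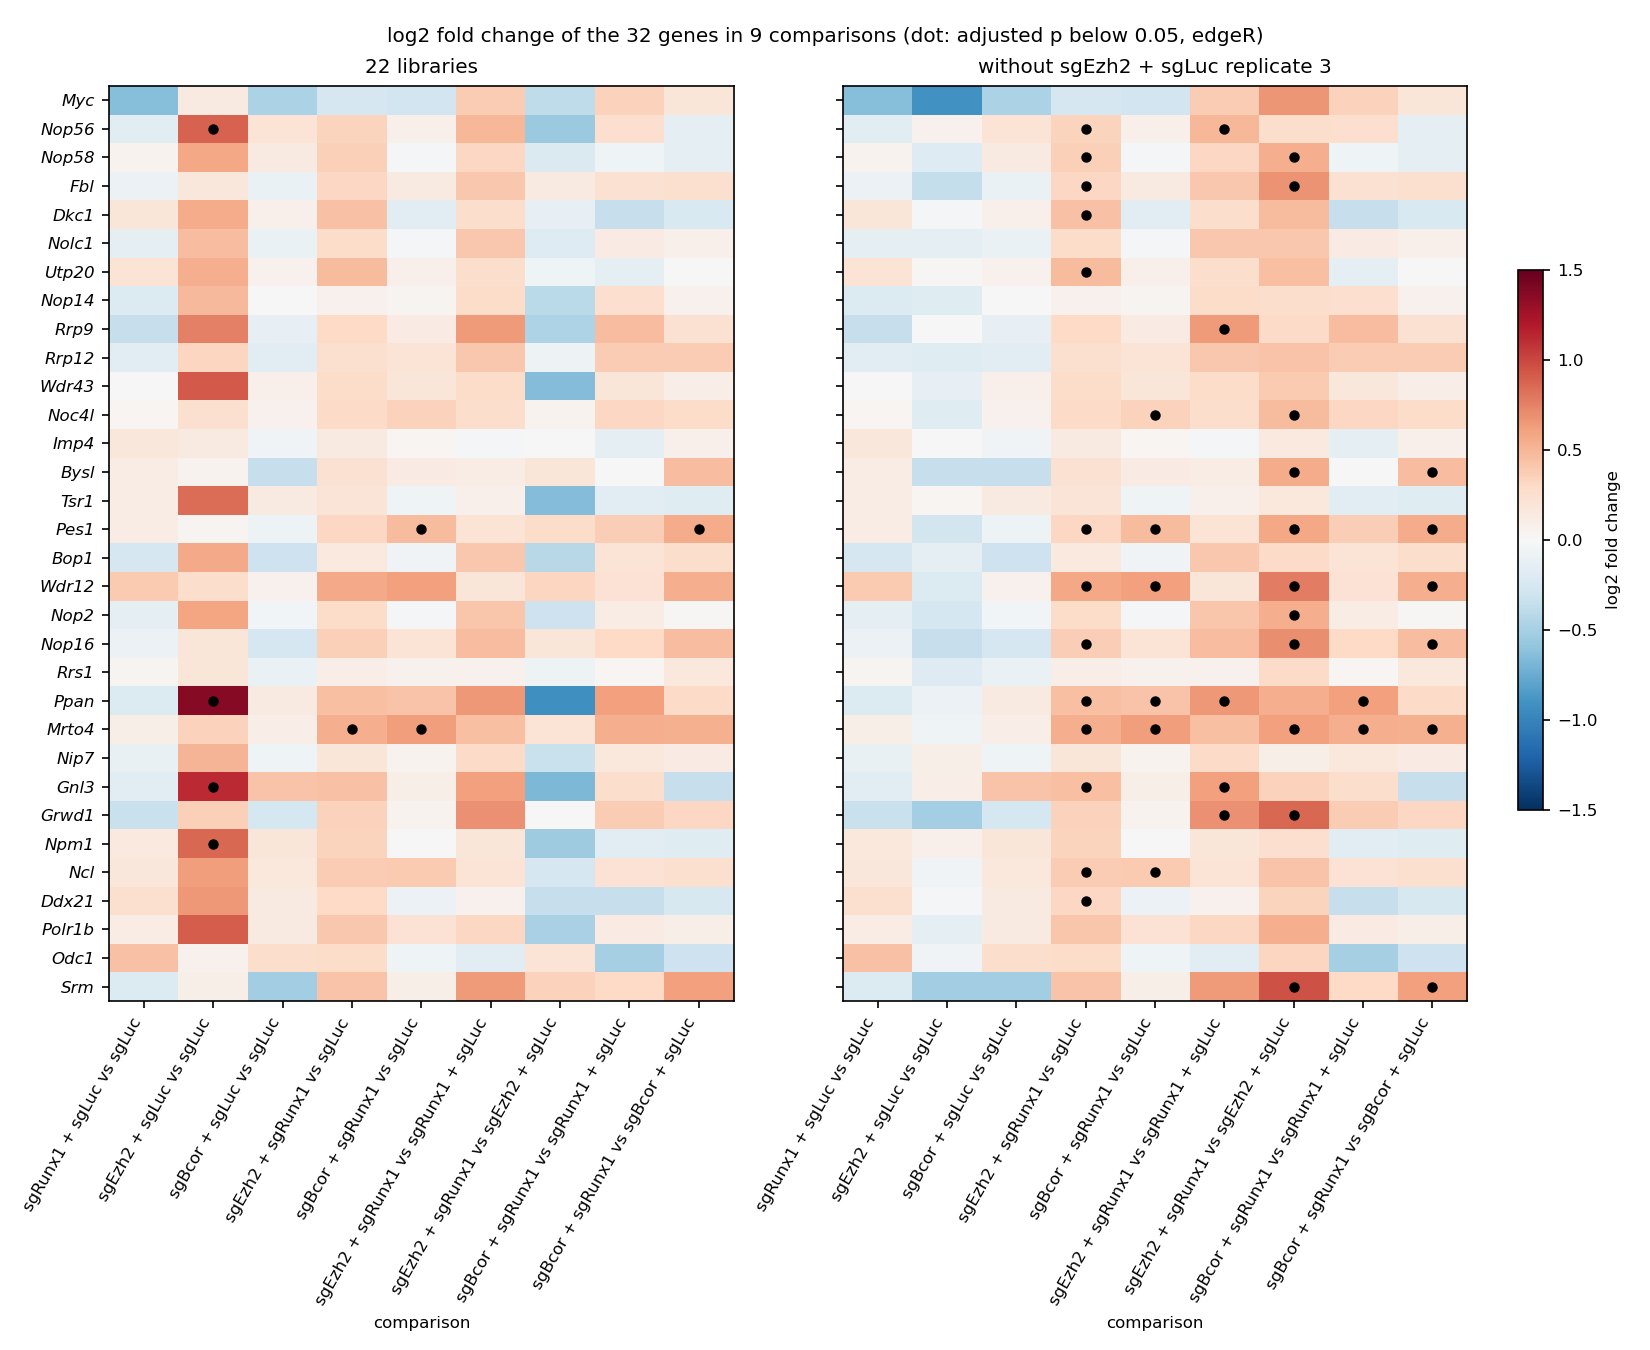
log2 fold change of the 32 genes in the 9 comparisons, first group over second, with all 22 libraries (left) and without sgEzh2 + sgLuc replicate 3 (right). Dots mark edgeR calls: 8 on the left and 43 on the right.

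In sgEzh2 + sgRunx1 against sgLuc 31 of the 32 genes were above 0, with a median of 0.31 against 0.00 over all genes, and Myc was the exception at -0.25. Mrto4, a relative of the stalk protein P0 that acts in large subunit assembly, was the only call (10.1% of all genes were called). It had 49.4, 66.0, 54.2 and 54.5 CPM in sgEzh2 + sgRunx1, against 33.2 to 40.4 CPM with a median of 39.5 in sgLuc. The groups did not overlap, and the log2 fold change was 0.54 (SE 0.169, FDR 0.0483, edgeR). Leaving out any 1 of the 10 libraries of the 2 groups ended the call of Mrto4, at values from 0.45 to 0.60, and without sgLuc replicate 3 another gene of the 32 was called instead. In all, 12 of the 32 genes had groups that did not overlap. The share of all genes without overlap was not counted, here or in the comparisons below. Such counts therefore have no background beside them.

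When sgEzh2 + sgLuc replicate 3 was left out, nearly the same log2 fold changes met a smaller estimate of spread, and 13 of the 32 genes were called, all higher (17.4% of all genes). They were 6 of 11 large subunit factors, 4 of 5 snoRNP genes, 1 of 9 small subunit factors and 2 of 3 abundant nucleolar genes. The 10 with the smallest p were Mrto4 (0.54, FDR 0.00336, edgeR), Wdr12 (0.58), Pes1 (0.31), Ppan (0.45), the pseudouridine synthase gene Dkc1 (0.44), Gnl3 (0.45), Ncl (0.38), Fbl (0.31), Utp20 (0.47) and the helicase gene Ddx21 (0.31, FDR 0.0381). Nop56, the large subunit factor Nop16 and the snoRNP gene Nop58 completed the list. By direction, 1389 of all 18171 genes were called higher and 1774 lower in this fit. Wdr12 had 35.5, 36.1, 44.8 and 35.1 CPM in sgEzh2 + sgRunx1, against 21.4 to 37.3 CPM in sgLuc; 1 control, replicate 3, lay inside the range of the edited mice. The count of 13 was 6 without sgLuc replicate 4, 8 without sgLuc replicate 6, and 5, 7 and 7 without replicates 2, 3 and 4 of sgEzh2 + sgRunx1. Granulocyte markers summed to 35705 to 47159 CPM in sgEzh2 + sgRunx1 and 43031 to 89730 CPM in sgLuc, B lineage markers to 27.8 to 52.4 and 259 to 763 CPM, T cell markers to 3.19 to 15.9 and 42.4 to 113 CPM, plasma cell markers to 248 to 341 and 498 to 4018 CPM, and proliferation markers to 1880 to 2071 and 1720 to 2302 CPM; their part in these differences was not tested.

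**Figure D5:**
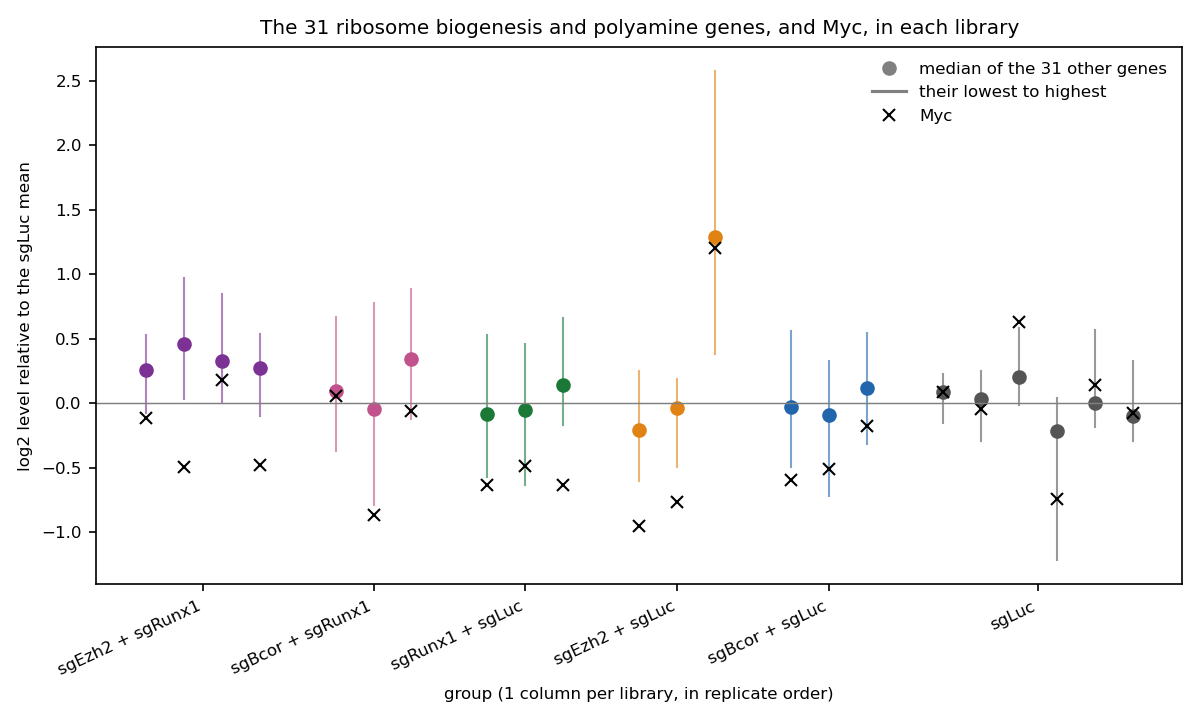
Median (dots) and range (lines) of log2 CPM relative to the sgLuc mean over the 31 genes other than Myc, and Myc (crosses), for each library. The 4 sgEzh2 + sgRunx1 medians lie between 0.26 and 0.46, and sgEzh2 + sgLuc replicate 3 lies at 1.29.

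Set beside each other by library, the 31 genes other than Myc had medians of 0.26, 0.46, 0.33 and 0.27 in sgEzh2 + sgRunx1 and of 0.10, -0.05 and 0.34 in sgBcor + sgRunx1, on the log2 scale relative to the sgLuc mean. The sgLuc libraries themselves ran from -0.22 to 0.20. All 4 sgEzh2 + sgRunx1 medians lay above every control, and only 1 of the 3 sgBcor + sgRunx1 medians did. Myc lay below the median of the other 31 genes in all 7 of these libraries. The same held in every single-guide library and in sgLuc replicates 1, 2 and 4, so it does not set the double groups apart. Within sgLuc, replicate 3 was the highest for 23 of the 32 genes and replicate 4 the lowest for 23. Replicate 4 also had the lowest immediate early sum of the 22 libraries (8 genes chosen after the data were seen), 585 CPM against 3607 to 15875, and its part in these levels was not tested.

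In sgBcor + sgRunx1 against sgLuc, 2 of the 32 genes were called, both higher large subunit factors (14.4% of all genes). By direction, 835 of all genes were called higher and 1712 lower. Mrto4 had 51.3, 65.9 and 61.8 CPM in sgBcor + sgRunx1, against 33.2 to 40.4 CPM with a median of 39.5 in sgLuc (0.63, SE 0.183, FDR 0.0268). Pes1, the PeBoW scaffold, had 109, 86.0 and 91.5 CPM in sgBcor + sgRunx1, against 64.2 to 75.0 CPM with a median of 68.8 in sgLuc (0.47, SE 0.14, FDR 0.0288, edgeR). Neither gene overlapped between the groups, and 5 of the 32 did not overlap in all. The median of the 32 was 0.08, against -0.02 over all genes, with 22 above 0. The call of Pes1 ended without sgBcor + sgRunx1 replicate 1 (0.38), and that of Mrto4 without replicate 2 (0.53) or 3 (0.64). With sgEzh2 + sgLuc replicate 3 left out both calls remained and 6 were made (22.7% of all genes): Pes1 (FDR 0.00127), Mrto4 (FDR 0.00165), Wdr12 (0.61), Ncl (0.39), the small subunit factor Noc4l (0.34) and Ppan (0.43, FDR 0.0375). By direction, 1669 of all genes were called higher and 2464 lower without sgEzh2 + sgLuc replicate 3. Leaving out sgBcor + sgRunx1 replicate 3 as well gave 2 of the 32 higher and 1 lower. Marker sums of 3 lists did not overlap between these groups: B lineage at 20.2 to 47.7 CPM in sgBcor + sgRunx1 and 259 to 763 CPM in sgLuc, T cell at 3.40 to 17.4 and 42.4 to 113 CPM, and plasma cell at 214 to 304 and 498 to 4018 CPM. Primary granule markers overlapped, at 9662 to 16065 CPM in sgBcor + sgRunx1 and 3780 to 13576 CPM in sgLuc. The part of these markers was not tested. DESeq2 with all libraries called 3 of the 32, Wdr12 besides Mrto4 and Pes1. Scaling by library totals moved the median of all genes to -0.12 and of the 32 genes to -0.02.

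Comparisons of a double with its singles ask what the second edited gene adds, and Ddx3y was at 0 in all of these libraries. In sgEzh2 + sgRunx1 against sgRunx1 + sgLuc none of the 32 was called by edgeR or DESeq2, where only 0.187% of all genes were, with 4 at an unadjusted p below 0.05, all higher. The median was 0.30, against 0.04 over all genes; 30 of the 32 were above 0 and 14 did not overlap. The smallest p belonged to Rrp9, a U3 snoRNP protein (0.64, FDR 0.354), Srm (0.64, FDR 0.371) and Mrto4 (0.45, FDR 0.376). Leaving out sgEzh2 + sgLuc replicate 3, 5 were called, all higher (3.14% of all genes), and none of them overlapped: Rrp9 (0.64, FDR 0.0203), Ppan (0.65), Grwd1 (0.68, a histone-binding and ribosome assembly protein), Nop56 (0.50) and Gnl3 (0.61, FDR 0.0421). By direction, 314 of all genes were called higher and 256 lower in this fit. Rrp9 had 23.8, 29.0, 25.7 and 22.9 CPM in sgEzh2 + sgRunx1, against 13.8, 15.8 and 19.2 CPM in sgRunx1 + sgLuc. Granulocyte markers summed to 35705 to 47159 CPM in sgEzh2 + sgRunx1, against 68146 to 76473 CPM in sgRunx1 + sgLuc, and proliferation markers to 1880 to 2071 against 2132 to 2312 CPM. Neither sum overlapped between the groups. Nor did those of macrophage markers (138 to 160 against 234 to 293 CPM), plasma cell markers (248 to 341 against 200 to 230 CPM) and immediate early genes (8522 to 12210 against 13580 to 14850 CPM). The part of these sums was not tested. The count of 5 was 0 without replicate 1 or 2 of sgRunx1 + sgLuc and 1 without replicate 2, 3 or 4 of sgEzh2 + sgRunx1.

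In sgEzh2 + sgRunx1 against sgEzh2 + sgLuc the direction depended on 1 library. With all of them none of the 32 was called by edgeR or DESeq2 (12.6% of all genes), 22 were below 0, the median was -0.20 and 1 had an unadjusted p below 0.05: Ppan, at -0.92 (FDR 0.169), followed by Gnl3 (-0.67, FDR 0.209) and Wdr43 (-0.65, FDR 0.21). Without replicate 3 of sgEzh2 + sgLuc all 32 were above 0, with a median of 0.44 against -0.01 over all genes. By edgeR 11 were called, all higher (9.36% of all genes in either direction). By direction, 571 of all 18171 genes were called higher and 1130 lower. Of the 32 genes 28 did not overlap, with only 2 libraries left in sgEzh2 + sgLuc. Fbl had 178, 208, 157 and 165 CPM in sgEzh2 + sgRunx1, against 101 and 122 CPM in replicates 1 and 2 of sgEzh2 + sgLuc (0.67, SE 0.132, FDR 0.00305, edgeR). Pes1 had 83.5, 87.5, 93.0 and 77.8 CPM in sgEzh2 + sgRunx1, against 52.9 and 61.8 CPM in those 2 libraries (0.58, SE 0.119, FDR 0.00437, edgeR). Neither gene overlapped. Grwd1 (0.86), Nop16 (0.70), Srm (0.95), Wdr12 (0.77), the rRNA methyltransferase gene Nop2 (0.54), Mrto4 (0.61), Bysl (0.56) and Noc4l (0.47) came next in order of p, and Nop58 (0.55, FDR 0.0459) last. These calls rest on 2 single-edited mice: the count was 0 without replicate 1 and 2 without replicate 2 of sgEzh2 + sgLuc, and 7 without sgEzh2 + sgRunx1 replicate 2. Omitting replicate 1 or 2 left 1 library in that group, assumed to vary like the other groups, and the log2 fold changes without replicate 1 were 0.55 for Fbl, 0.48 for Pes1 and 0.86 for Grwd1. With replicate 3 kept, leaving out replicate 1 or 2 of sgEzh2 + sgLuc gave 4 or 3 calls, all lower. Primary granule markers summed to 8177 to 10654 CPM in sgEzh2 + sgRunx1, against 4680 and 4992 CPM in those 2 libraries, granulocyte markers to 35705 to 47159 against 76136 and 92756 CPM, T cell markers to 3.19 to 15.9 against 155 and 159 CPM, and B lineage markers to 27.8 to 52.4 against 973 and 999 CPM. Stem and progenitor markers summed to 419 to 616 against 334 and 370 CPM, and proliferation markers to 1880 to 2071 against 2123 and 2131 CPM. Plasma cell markers summed to 248 to 341 against 659 and 815 CPM, and macrophage markers to 138 to 160 against 88.9 and 115 CPM. The immediate early sum was 8522 to 12210 against 5424 and 6083 CPM. None of these sums overlapped, while the erythroid sum did. Their part was not tested.

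In sgBcor + sgRunx1 against sgRunx1 + sgLuc none of the 32 was called by edgeR or DESeq2 (1.24% of all genes), with 2 at an unadjusted p below 0.05, both higher, and a median of 0.21. Mrto4 (0.54, FDR 0.219), Pes1 (0.37, FDR 0.275) and Odc1 (-0.50, FDR 0.401) had the smallest p in edgeR. Without sgEzh2 + sgLuc replicate 3 Ppan (0.62, FDR 0.0372) and Mrto4 (0.54, FDR 0.0431) were called higher (5.02% of all genes); the count was 0 without sgRunx1 + sgLuc replicate 1 or 2 or sgBcor + sgRunx1 replicate 2, 5 without sgRunx1 + sgLuc replicate 3, and 1, lower, without sgBcor + sgRunx1 replicate 3. Without sgEzh2 + sgLuc replicate 3 alone, 411 of all genes were called higher and 502 lower. Against sgBcor + sgLuc Pes1 alone was called (12.2% of all genes), with 109, 86.0 and 91.5 CPM in sgBcor + sgRunx1, against 65.1, 61.8 and 68.2 CPM in sgBcor + sgLuc (0.56, SE 0.164, FDR 0.0332, edgeR). The groups did not overlap, as for 11 of the 32 genes. The call of Pes1 ended without sgBcor + sgRunx1 replicate 1 (0.45) or 3 (0.61), or sgBcor + sgLuc replicate 1 (0.55), 2 (0.52) or 3 (0.59). Without sgEzh2 + sgLuc replicate 3, 6 were called, all higher (21.1% of all genes): Pes1 (FDR 0.0017), Mrto4 (0.53), Bysl (0.46), Wdr12 (0.54), Nop16 (0.46) and Srm (0.61, FDR 0.0455). By direction, 1539 of all genes were called higher and 2288 lower in that fit. Primary granule markers summed to 9662 to 16065 CPM in sgBcor + sgRunx1, against 5678 to 6248 CPM in sgBcor + sgLuc, and T cell markers to 3.40 to 17.4 against 109 to 206 CPM. B lineage markers summed to 20.2 to 47.7 CPM in sgBcor + sgRunx1, against 68.4, 1430 and 2264 CPM in sgBcor + sgLuc, where replicate 2 was the low one. None of these sums overlapped between the groups, and their part was not tested. The count of 6 was 2 and 3 without sgBcor + sgRunx1 replicates 2 and 3, and 1, 3 and 3 without sgBcor + sgLuc replicates 1, 2 and 3. Scaling by library totals moved the median of all genes in this comparison to -0.21 and of the 32 genes to -0.04, against 0.14 with TMM.

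Whether a double differed from the sum of its single effects was tested as an interaction. The control sgLuc is part of both interactions, so the sex difference seen in Ddx3y does not cancel. Sex and guide therefore cannot be told apart in these values. With all libraries no gene of the 32 was called in the Ezh2 by Runx1 interaction (0.527% of all genes) or the Bcor by Runx1 interaction (3.22% of all genes). Without sgEzh2 + sgLuc replicate 3 Fbl (0.76, FDR 0.0398) and Grwd1 (1.19, FDR 0.0334) were called for Ezh2 by Runx1 (0.792% of all genes), and Bop1 (0.51, FDR 0.0494) for Bcor by Runx1 (9.14% of all genes), all above the sum in edgeR. Grwd1 had 20.7, 27.3, 21.1 and 21.9 CPM in sgEzh2 + sgRunx1, against 13.5, 11.5 and 17.6 CPM in sgRunx1 + sgLuc, 12.5 and 12.6 CPM in replicates 1 and 2 of sgEzh2 + sgLuc, and 15.1 to 18.8 CPM in sgLuc. Both single groups lay mostly below the controls in Grwd1 and the double group lay above them. Bop1 had 53.0, 68.0 and 56.1 CPM in sgBcor + sgRunx1, against 46.7, 50.6 and 56.7 CPM in sgRunx1 + sgLuc, 50.5, 43.5 and 53.7 CPM in sgBcor + sgLuc, and 55.1 to 66.0 CPM in sgLuc. For Bop1 the double group overlapped the controls. Myc was not called in the interactions, at 1.29 (FDR 0.105) and 0.81 (FDR 0.151, edgeR) without that library.

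Counted per gene over the 9 comparisons without sgEzh2 + sgLuc replicate 3, Mrto4 was called by edgeR in 5, Pes1, Wdr12 and Ppan in 4 each and Nop16 in 3. Large subunit assembly is the role of these 5 genes and of 11 of the 32 in all, and its members Bop1, Rrs1 and Nip7 were called in none. The comparisons share libraries, the 5 with sgLuc the same 6 controls, so these counts are not independent of each other. How many of all genes were called in as many comparisons was not counted. In a single comparison of this fit up to 22.7% of all genes were called. Myc, Nolc1, Nop14, Rrp12, Wdr43, Imp4, Tsr1, Bop1, Rrs1, Nip7, Polr1b and Odc1 were called by edgeR in none of the 9, with or without that library, and Npm1 by edgeR only with it. DESeq2 did call some of these: Wdr43 and Nip7 in sgEzh2 + sgLuc against sgLuc with all libraries and, without that library, Myc as given above, Nolc1 in 3 comparisons of sgEzh2 + sgRunx1 (0.26, FDR 0.0469, against sgLuc; 0.39, FDR 0.0198, against sgRunx1 + sgLuc; 0.38, FDR 0.0396, against sgEzh2 + sgLuc) and Bop1 in 1 (0.38, FDR 0.0372, against sgRunx1 + sgLuc).

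Other genes of the same pathways, 153 of them tested, were counted by list. Of 47 other small subunit factors 4 were higher and 1 lower in sgEzh2 + sgLuc against sgLuc with all libraries (Dimt1 0.84, Ddx10 0.78, Nat10 0.88, Nop9 -0.34), beside 8.25% of all genes, and none without replicate 3, beside 1.05%. In sgEzh2 + sgRunx1 against sgLuc without replicate 3, 6 of these 47 and 7 of 42 other large subunit factors were called, all higher, beside 17.4% of all genes called in either direction. Among them were the acetyltransferase gene Nat10 (0.59, FDR 0.000797) and Rsl24d1 (0.49, FDR 0.000423, edgeR). Of 12 other snoRNP genes and 14 of the RNA polymerase I machinery 1 each was higher. Of 11 genes of the MYC network 2 were lower there, Mxd3 (-0.84) and Mxd1 (-0.97), which encode MAX partners. Of 27 MYC targets outside the nucleolus 3 were higher and 2 lower, the lower ones being the cyclin gene Ccnd2 (-1.33) and the lactate dehydrogenase gene Ldha (-0.59). The share called in either direction in each of these 6 lists was near or below that of all genes. By direction, 1389 of the 18171 genes were called higher and 1774 lower. Near or below does not refer to the higher calls alone. In sgBcor + sgRunx1 against sgLuc without that library, 5 of 47 small subunit factors were higher, and 9 of 42 large subunit factors were higher and 1 lower, beside 22.7% of all genes called in either direction. In either direction the small subunit share was below that of all genes and the large subunit share close to it. By direction, 1669 of the 18171 genes were called higher and 2464 lower, and the higher calls alone are not covered by this. Among them were Rsl24d1 (0.55, FDR 0.00026) and Eif6 (0.38, FDR 0.0125), which keeps the large subunit from joining early.

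Exons of 13 of the 32 genes overlap an exon of a gene on the opposite strand in GENCODE M21, and the use of strand in the counting is not given. The overlap is 361 bases for Bysl with the more abundant Ccnd3 and 1240 bases for Tsr1 with Srr, and reads of these pairs cannot be told apart. Npm1 is known to have processed pseudogenes, and how the counting treated reads that match both was not given.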

How the data were processed

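Poly(A)-selected RNA was sequenced from whole marrow of 22 mice, grouped by sample title; the number in the title, taken as the replicate, differs from that in the description for 4 libraries. Nothing besides the labels shows that replicates are separate transplants, so p-values measure the spread between these samples. The authors deposited raw read counts per Ensembl gene and FPKM. Per the submitters' processing notes fastp, HISAT2, HTSeq and build mm9 were used; their versions and options, the strand setting and the annotation were not given. The deposited FPKM equal count per library total and gene length in 14383 of 14383 genes checked (relative tolerance 1e-06).

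Tests on the counts ran under edgeR 4.0.16 and R 4.3.3 (filterByExpr by group with a minimum count of 10, TMM, robust quasi-likelihood, 1 model with 6 group means, 16 residual degrees of freedom). This tested 17659 genes, with Benjamini-Hochberg adjustment over all of them, and 18171 genes without sgEzh2 + sgLuc replicate 3. SE is the absolute log2 fold change over the square root of F. The script was tested on simulated data. DESeq2 1.42.0, other scalings, no filter, fits of 2 groups, a replicate block and omission of each library were alternatives. The smallest chi-square per degree of freedom between libraries of 1 group was 14.8, so none was the same library sequenced again. This does not exclude libraries prepared separately from the same mouse.

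The genes, the lists and the comparisons were chosen with earlier results of these data known; the interactions, the immediate early list and further alternatives on the fit without replicate 3 were added after seeing the data. Named were Myc, the called genes in order of p (up to 10 per comparison), or the 3 with the smallest p where none was called, and up to 4 per other list. Values per library were set for Myc and the genes called most often with all libraries; those of Wdr12, Fbl and Rrp9, and the promoter of Mrto4, were chosen after their values were seen. Promoters are RefSeq's (GRCm38.p6) and gene overlaps GENCODE's (M21, GRCm38); mm9 is older, and no position was converted.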

Additional observations from a re-analysis of the deposited data

Results flagged for a closer look

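In 64 sets of a gene in a group of 4 or 6 mice, 8 held a library whose gap to the nearest other value passed Dixon's limit, which chance passes in about 1 of 20 sets. In sgEzh2 + sgRunx1, replicate 2 had 719 CPM of Ncl (545 to 569 in the others) and 120 CPM of Srm (66.0 to 75.1). Replicate 3 had 44.8 CPM of Wdr12 (35.1 to 36.1), and replicate 4 had 39.0 CPM of Noc4l (44.5 to 45.2). In sgLuc, replicate 3 had 37.3 CPM of Wdr12 (21.4 to 26.6), 33.1 CPM of Nop16 (26.6 to 28.4) and 50.6 CPM of Rrs1 (33.4 to 38.8). Replicate 4 of sgLuc had 33.2 CPM of Mrto4 (39.2 to 40.4).

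The effect of the double edit differed from the sum of the single effects for 3 genes, by edgeR's interaction test without sgEzh2 + sgLuc replicate 3. The difference was 0.76 for Fbl and 1.19 for Grwd1 on the log2 scale in the Ezh2 by Runx1 interaction. It was 0.51 for Bop1 in the Bcor by Runx1 interaction. Of all genes 0.792% were called in the Ezh2 by Runx1 interaction and 9.14% in the Bcor by Runx1 interaction. With all libraries none of the 3 was called. Because sgLuc is part of these interactions, sex and guide cannot be told apart in them.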

How the results depend on the processing

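Limits: groups hold 3 to 6 mice, and sex, guide and cell makeup cannot be told apart against sgLuc. Without TMM, by library totals, the called genes of the 32 were 8 in sgEzh2 + sgLuc against sgLuc, 0 in sgBcor + sgRunx1 against sgLuc and 0 against sgBcor + sgLuc. With RLE scaling 0 were called in sgEzh2 + sgRunx1 against sgLuc. With no filter on low counts the numbers were 1, 0 and 0 in sgEzh2 + sgLuc against sgLuc, sgEzh2 + sgRunx1 against sgLuc and sgBcor + sgRunx1 against sgBcor + sgLuc. Fits of the 2 groups alone gave 0, 15, 6 and 0 in sgEzh2 + sgLuc against sgLuc, sgEzh2 + sgRunx1 against sgLuc, sgEzh2 + sgRunx1 against sgRunx1 + sgLuc and sgBcor + sgRunx1 against sgBcor + sgLuc. With the replicate block 0 were called in sgEzh2 + sgLuc, sgEzh2 + sgRunx1 and sgBcor + sgRunx1 against sgLuc. The 46 pairs with the same number in the title correlated at -0.135 to 0.0965, none over 0.1, and so gave no sign of a pairing. In groups of 3 to 6 mice this cannot exclude a pairing, and the numbers in the description were not tried. The cause of the changes in the counts of calls was not tested. Leaving out 1 library gave 0 to 18, 0 to 13 and 1 to 6 calls for sgEzh2 + sgLuc, sgEzh2 + sgRunx1 and sgBcor + sgRunx1 against sgLuc. It gave 0 to 0 for the other 2 singles, 0 to 5 and 0 to 11 for sgEzh2 + sgRunx1 against sgRunx1 + sgLuc and sgEzh2 + sgLuc, and 0 to 2 and 0 to 6 for sgBcor + sgRunx1 against sgRunx1 + sgLuc and sgBcor + sgLuc. The log2 fold change of Ppan in sgEzh2 + sgLuc against sgLuc ran from -0.0893 without replicate 3 to 1.79 without replicate 1 of sgEzh2 + sgLuc. Single-gene values were followed only for Myc and the genes called in the fit being varied. Among these, Ppan was the only called value to reverse. Genes not called were not followed. In sgEzh2 + sgRunx1 against sgEzh2 + sgLuc, 22 of the 32 were below 0 with all libraries, and all 32 were above 0 without replicate 3.

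Without that library DESeq2 called 1 gene each in sgRunx1 + sgLuc, sgEzh2 + sgLuc and sgBcor + sgLuc against sgLuc, 11 in sgEzh2 + sgRunx1 against sgRunx1 + sgLuc and 4 in sgBcor + sgRunx1 against sgRunx1 + sgLuc. Library totals gave 20 and 3 in sgEzh2 + sgRunx1 and sgBcor + sgRunx1 against sgLuc, 11 and 0 in these against sgRunx1 + sgLuc, and 2 in sgBcor + sgRunx1 against sgBcor + sgLuc. Leaving out 1 further library gave 0 to 1, 0 to 1 and 0 to 0 for the singles sgRunx1 + sgLuc, sgEzh2 + sgLuc and sgBcor + sgLuc, and 5 to 18 and 3 to 6 for the doubles sgEzh2 + sgRunx1 and sgBcor + sgRunx1, all against sgLuc. It gave 0 to 7 and 0 to 9 for sgEzh2 + sgRunx1 against sgRunx1 + sgLuc and sgEzh2 + sgLuc, and 0 to 5 and 1 to 6 for sgBcor + sgRunx1 against sgRunx1 + sgLuc and sgBcor + sgLuc. Of the single-gene values followed as said above, 593 stayed on the same side of the threshold, 216 lost the call and 1 called value reversed. The 4 that gained a call were all of Myc, the only gene in this tally that could gain one. Calls gained by other genes are given with each comparison. DESeq2 gave no adjusted p for 1 of the 32 genes in each comparison with all libraries.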
